A study of Rattus norvegicus with 6 samples.

Results

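The mRNAs of control liver were compared between the heavy and the light fraction of a sucrose density gradient, to see which of them carried many and which carried few ribosomes after a meal. Livers came from male obesity-prone Sprague Dawley (op-SD) rats kept on the control diet (CD, TD 08485) for 2 weeks after a first week on it. The rats were fasted for 16 h and refed for 1 h, and the left lobe of the liver was taken. The light fraction held ribosome-free mRNAs and those bound to at most 3 ribosomes, and the heavy fraction held mRNAs bound to at least 4 ribosomes. RNA of 3 rats was pooled in equal amounts into 1 library per fraction, and the series has 6 such libraries, namely total RNA, light and heavy fraction of rats on the CD and of rats on the Western diet (WD, TD 88137). No genetic change is named for any group, and the diet is the only treatment that differed. With 1 pooled library a side there is no replicate check and no test of any difference, so "higher" below describes these 2 libraries and not the rats.

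A locus was compared where it had a gene symbol, where its estimate had not failed, and where its 6 libraries averaged 1 FPKM or more. This held for 10201 of the 32158 loci with a symbol. FPKM is the number of sequenced fragments per kilobase of transcript, scaled to the fragments mapped in the library. Near the limit, Coro2b was kept with 1.87 FPKM in the heavy and 1.74 FPKM in the light fraction, and Sh3d21, at 0 and 0.755 FPKM, was not. The comparison is given as the log2 ratio of heavy over light after adding 0.1 FPKM, and a locus is called where the ratio is at least 2 or at most 0.5. Each library was made from a set amount of RNA, and the deposited values were normalized between libraries. The ratio therefore compares an mRNA's normalized level in the heavy fraction with that in the light fraction and does not count ribosomes. Where equality lies depends on that normalization. The libraries are of whole liver, where fewer cells of a type and less RNA per cell cannot be told apart.

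Polysomes are mRNAs that several ribosomes translate at once. How many ribosomes an mRNA holds depends on how often translation starts on it and on how long its reading frame is, and a gradient separates mRNAs by that number. Feeding activates the kinase complex mTORC1, whose best known translational targets are the mRNAs of ribosomal proteins and elongation factors. These are called TOP mRNAs because they begin with a C followed by an unbroken run of pyrimidines.

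The median log2 ratio of all loci was 0.01, and the quartiles were -0.90 and 0.90. Of the 10201 loci, 2342 (23.0%) were at least 2-fold higher in the heavy fraction, 2437 (23.9%) were at least 2-fold higher in the light fraction, and 5422 (53.2%) lay within 2-fold. Many of these ratios rest on few fragments. Whole fragment numbers could be inferred for 7556 of the loci (74.1%), and 33.3% of these had 10 or fewer fragments in both fractions together. A 95% counting interval, which covers counting error only and compares the libraries rather than the conditions, lay above 1 for 1185 (15.9%) and below 1 for 1010 (13.5%) of the 7468 loci that allowed one. A locus was listed at 0 in at least 1 of the fractions for 1282 loci. Among the loci past 2-fold, total RNA lay between the fractions for 3386 of 4779 (70.9%).

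Abundant mRNAs leaned to the heavy fraction. Of 647 loci averaging at least 100 FPKM, 210 (32.5%) were at least 2-fold higher in the heavy and 113 (17.5%) in the light fraction, and their median log2 ratio was 0.47. Among the 2580 loci of 1 to 3 FPKM the shares were 25.5% and 29.7%. The 8651 loci that RefSeq lists as protein-coding had a median of 0.10, with 2037 higher in the heavy and 1990 higher in the light fraction.

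**Figure D1:**
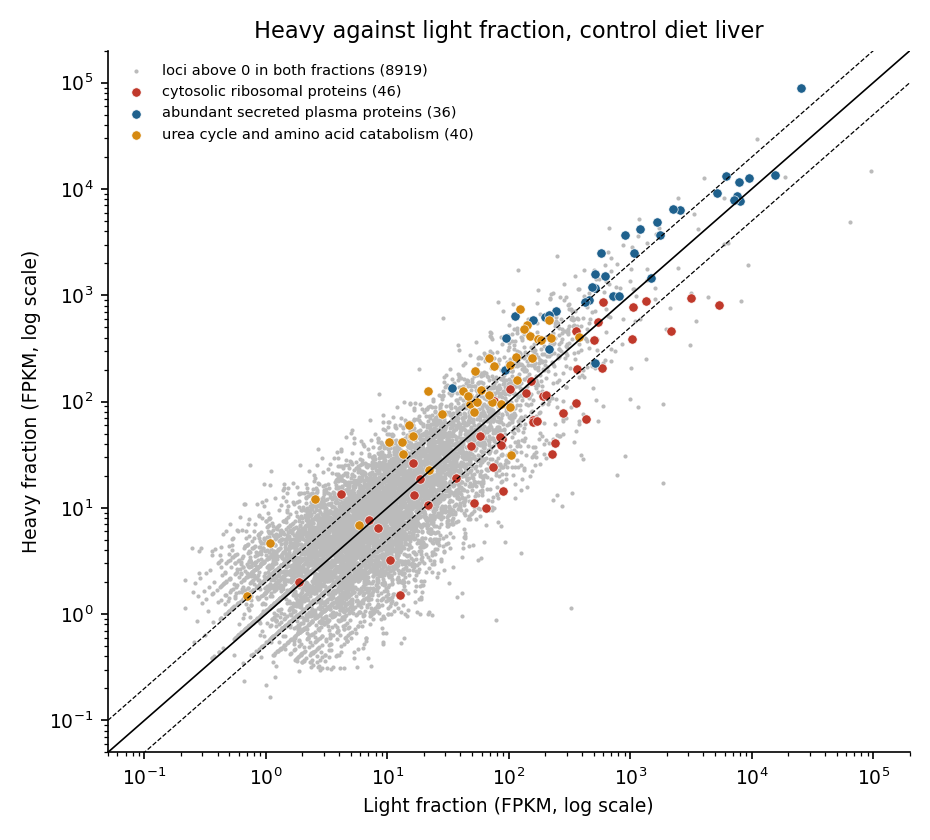
Heavy fraction FPKM against light fraction FPKM of control diet liver, both on log axes, for the 8919 loci above 0 in both fractions, with cytosolic ribosomal proteins, plasma proteins and the enzymes of the urea cycle and amino acid breakdown in colour. The solid line marks equal values and the dashed lines a 2-fold difference. The ribosomal proteins lie mostly on the light side of the solid line, and the other coloured groups mostly on its heavy side.

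The mRNAs of cytosolic ribosomal proteins lay mostly on the light side. Of 60 compared, 25 were at least 2-fold higher in the light and 3 in the heavy fraction, and of the 46 with a counting interval it lay below 1 for 24 and above 1 for 1. Their median log2 ratio was -0.83, and their summed level was 8613 FPKM in the heavy and 20850 FPKM in the light fraction, or 1.25% and 3.07% of the FPKM of all loci with a symbol. Against total RNA, their median was -0.28 in the heavy and 0.46 in the light fraction. These mRNAs are short, with a median implied transcript length of 569 bases, and many have near-identical pseudogenes between which the counting can split reads. Of the 60, 12 were listed at 0 in the heavy and 9 in the light fraction.

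The starts of these genes show the element that defines TOP mRNAs. A run was searched on the transcript strand as a C followed by at least 4 bases that are each C or T, starting within 10 bases of the annotated start, in the RefSeq promoter table of build GRCr8. It was found for 33 of 45 ribosomal protein genes with an entry (73.3%), against 28.4% of all 27457 promoters, and for 18 (40.0%) the annotated first base was itself a C followed by at least 4 such bases, whether or not the run reached further upstream, against 2.6%. Ribosomal protein mRNAs with such a run had a median log2 ratio of -0.95, and the 12 without one had a median of -0.41, with 16 of 33 and 3 of 12 past 2-fold on the light side. Such gaps also occurred in a list that is not of TOP mRNAs. The medians with and without a run were 1.21 (12 genes) and 1.22 (18 genes) for plasma proteins, 0.06 (9 genes) and 1.13 (18 genes) for cytochrome P450s, and 0.04 and 0.10 for all loci compared. Windows from 5 bases before to 20 bases after the annotated first base are shown for 6 ribosomal proteins with a run that begins at most 4 bases before the start, for 2 without one and for Alb, 5′ to 3′ on the transcript strand, with the run in capitals. These genes were chosen after their values were seen, to set starts with the element beside starts without it. On the forward strand lie Rpl12 (chr3:36661935-36661959), Rpl27a (chr1:172974568-172974592) and Rpl18 (chr1:105325265-105325289), and on the reverse strand Rplp0 (chr12:46718371-46718395), Rplp1 (chr8:71290853-71290877), Rps7 (chr6:50999426-50999450), Rps15 (chr7:10068096-10068120), Rpl41 (chr7:1563478-1563502) and Alb (chr14:17906960-17906984).
Rpl12: ccgtCTTTTCggctttcggttcgga
Rpl27a: tgggCTCCTCCCTCTTTCTTTTCTg
Rplp0: caCTTCTCTCgccaggcgtcctcat
Rplp1: gtgatCCTTTCCTCagctgccgcca
Rps7: tgtgtCTCTTTCTaagccggcactc
Rps15: gCTTCCTTTTCCCagcagccgccaa
Rpl18: gtctagcaggaggcgccatcatggt
Rpl41: aagtgacgacaccaagcacgccatt
Alb: ccccactagCCTCTggcacaatgaa
The log2 ratios of the 6 genes with such a run were -2.64 for Rpl12, -1.67 for Rpl27a, -1.43 for Rplp0, -1.88 for Rplp1, -1.14 for Rps7 and -0.44 for Rps15. Rpl18, at 0.53, and Rpl41, at -1.75, had no run in this window, which says only that these letters are not near the annotated start.

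Rps29, a small protein of the 40S subunit, was the ribosomal protein mRNA with the highest mean of both fractions. It was at 810 FPKM in the heavy fraction, 5328 FPKM in the light fraction and 1604 FPKM in total RNA (63 and 445 inferred fragments in the heavy and light fraction), a log2 ratio of -2.72 with a ratio of 0.152 (95% counting interval 0.115 to 0.198). Rpl41, which encodes the shortest protein of the 60S subunit, was at 950, 3193 and 1281 FPKM in the same order, a log2 ratio of -1.75. Rpl39, also of the 60S subunit, was at 464, 2180 and 822 FPKM, and its ratio was 0.213 (0.149 to 0.297). The deposited Rpl39 locus lies on chromosome 14 of Rnor_6.0 and RefSeq places the gene on chromosome X, so reads of a copy may be in it. Not every member was on the light side. Rps25 was nearer to equal at 877 FPKM in the heavy, 1354 FPKM in the light fraction and 528 FPKM in total RNA, a ratio of 0.648 (0.507 to 0.824). Rpl18 was the one member whose interval lay above 1, with 868, 600 and 584 FPKM and a ratio of 1.45 (1.20 to 1.75). Rps18, which the study used in qRT-PCR, was at 32.4 FPKM from 6 inferred fragments in the heavy and 226 FPKM from 45 in the light fraction.

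Other TOP mRNAs were split. Of 18 compared, 6 were at least 2-fold higher in the light and 2 in the heavy fraction, against 23.9% and 23.0% of all loci. The median was -0.61. Tpt1, which encodes the translationally controlled tumour protein, was at 65.0 FPKM in the heavy fraction, 380 FPKM in the light fraction and 126 FPKM in total RNA, a log2 ratio of -2.55. Npm1, a nucleolar chaperone of ribosome assembly, was at 47.2 and 258 FPKM in the heavy and light fraction. Eef2, the factor that moves the ribosome along the mRNA and itself a TOP mRNA, was at 547, 459 and 441 FPKM in the heavy fraction, the light fraction and total RNA, and its 1082 and 974 fragments gave a ratio of 1.19 (1.09 to 1.30). Its transcript is long beside those of ribosomal proteins, with 2917 bases implied against their median of 569.

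Of 36 translation factors outside the TOP group, 8 were higher in the heavy and 11 in the light fraction, with a median of 0.03. The shares of all loci were 23.0% and 23.9%. Counting intervals lay above 1 for 4 and below 1 for 9 of 29, against 15.9% and 13.5% of all loci that allowed one. Eif4a1, the RNA helicase that opens the start of the mRNA, was at 184, 60.3 and 63.0 FPKM in the heavy fraction, the light fraction and total RNA, a log2 ratio of 1.61. Eif3b, a core subunit of eIF3, had a log2 ratio of 1.73. On the light side, Eif1, which acts in the choice of the start codon, had -1.15, and Eif2s2, the beta subunit of eIF2, had -2.26 on 5 and 26 fragments. Eif4ebp2, an inhibitor of the cap-binding protein eIF4E, was nearly all in the light fraction. It was at 0.888 FPKM (1 fragment) in the heavy, 78.5 FPKM (95 fragments) in the light fraction and 60.4 FPKM in total RNA, a log2 ratio of -6.31. In Rnor_6.0 its locus is chromosome 20, 31055789 to 31072469.

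The mRNAs of secreted plasma proteins lay on the heavy side. Of 36 compared, 23 were at least 2-fold higher in the heavy and 1 in the light fraction, the counting interval lay above 1 for 18 and below 1 for 1 of 20, and the median was 1.22. Their levels summed to 32.3% of the heavy and 16.5% of the light fraction's FPKM over loci with a symbol. Alb (albumin, chromosome 14, 19176277 to 19191863) alone made up 12.9% of the heavy and 3.77% of the light sum, at 88634 FPKM in the heavy fraction, 25611 FPKM in the light fraction and 47108 FPKM in total RNA. The apolipoproteins were not all alike. Apoe, a ligand of lipoprotein receptors, was at 2520, 575 and 2101 FPKM in the heavy fraction, the light fraction and total RNA, a log2 ratio of 2.13. Apoc2, the activator of lipoprotein lipase, was at 229, 515 and 330 FPKM, a log2 ratio of -1.17 with a ratio of 0.444 (0.334 to 0.585). The short and abundant Apoc1 (13593, 15563 and 10608 FPKM) and Apoa2 (7757, 8037 and 5729 FPKM) were near equal, with log2 ratios of -0.20 and -0.05. The locus of Apoe runs from 80612895 to 80617057 on chromosome 1 and that of Apoc2 from 80589023 to 80594136, so these genes of one cluster were on opposite sides.

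Other carrier proteins had lower ratios than albumin in the examples named here. Tf (transferrin, the iron carrier) was at 12630, 9459 and 15270 FPKM in the heavy fraction, the light fraction and total RNA, a log2 ratio of 0.42. Ttr, the carrier of thyroxine, had a log2 ratio of 0.58 and Gc, the vitamin D-binding protein, one of 1.11. The highest ratio in the group was that of Itih2, a heavy chain of the inter-alpha-trypsin inhibitor, with 640 and 113 FPKM in the heavy and light fraction and 271 FPKM in total RNA, a log2 ratio of 2.50. For this group the choice of denominator matters, since the median of heavy over total RNA was 0.29 and that of light over total RNA was -0.83.

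Complement and coagulation factors gave 13 of 31 higher in the heavy and 1 higher in the light fraction, with a median of 0.82. C6, a component of the membrane attack complex, was at 821 FPKM in the heavy fraction, 109 FPKM in the light fraction and 170 FPKM in total RNA, and its ratio was 7.52 (6.57 to 8.65). F2 (prothrombin) was at 967, 265 and 297 FPKM, a log2 ratio of 1.87. F9, the clotting protease factor IX, went the other way, at 102, 281 and 248 FPKM with 191 and 567 fragments and a ratio of 0.362 (0.305 to 0.427). Its locus is chromosome X, 143097525 to 143141794.

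**Figure D2:**
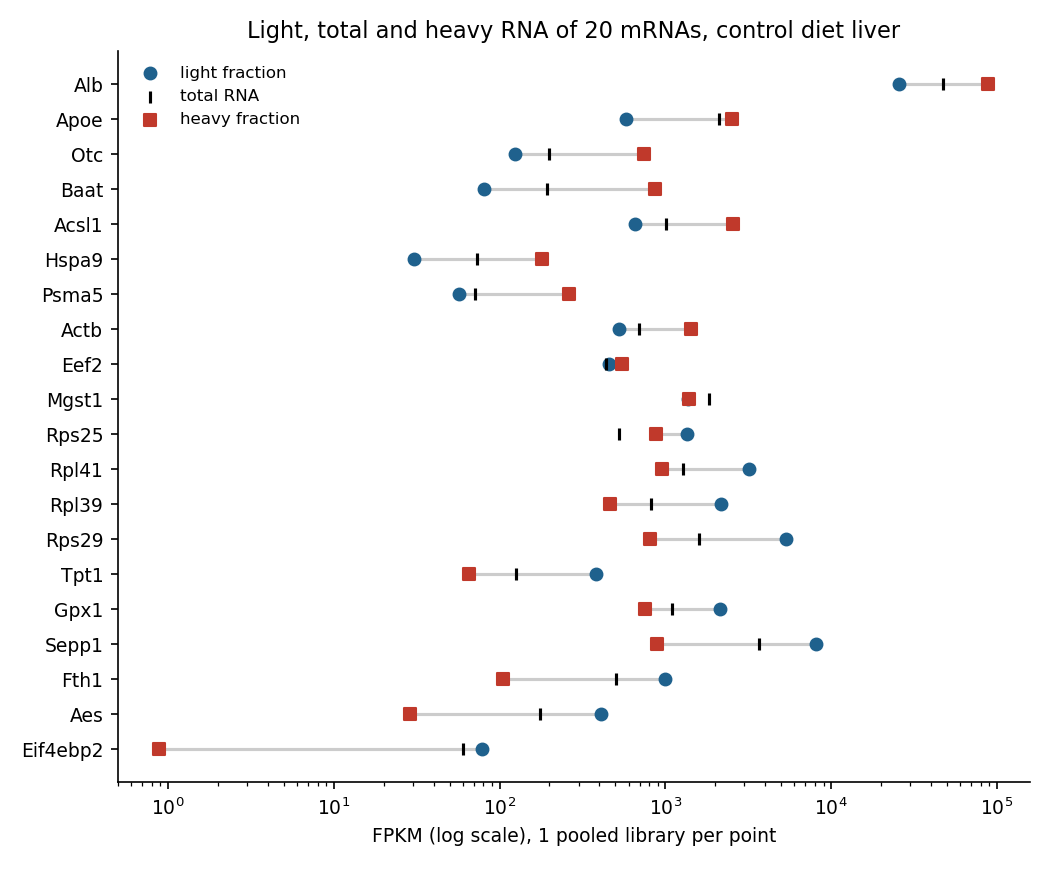
FPKM on a log axis in the light fraction, total RNA and heavy fraction of control diet liver for 20 mRNAs, 1 library per point. The 3 values of most mRNAs are ordered, with the heavy point highest for Alb, Otc, Baat and Hspa9 and lowest for Sepp1, Fth1, Rps29 and Eif4ebp2.

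Enzymes of the hepatocyte's own metabolism were mostly on the heavy side as well. For the urea cycle and amino acid breakdown, 26 of 40 were at least 2-fold higher in the heavy and 1 in the light fraction, with a median of 1.22. Otc, the mitochondrial ornithine transcarbamylase, was at 747, 124 and 198 FPKM in the heavy fraction, the light fraction and total RNA, and its 821 and 146 fragments gave a ratio of 6.04 (5.06 to 7.25). Oat, which breaks down ornithine, had a log2 ratio of 2.54 and Cps1, the entry enzyme of the urea cycle, one of 1.90. Glul, the glutamine synthetase of hepatocytes around the central vein, was the exception, at 31.3 FPKM in the heavy fraction, 105 FPKM in the light fraction and 135 FPKM in total RNA, a log2 ratio of -1.74.

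No member of the fatty acid oxidation and ketogenesis list was 2-fold higher in the light fraction. Of 29 compared, 16 were at least 2-fold higher in the heavy fraction, the counting interval lay above 1 for 17 of 21, and the median was 1.10. Acsl1, which activates long-chain fatty acids, was at 2569, 654 and 1006 FPKM in the heavy fraction, the light fraction and total RNA, a log2 ratio of 1.97. Acadvl, which begins the oxidation of very long chains, had a log2 ratio of 2.40 and Acaa1a, the thiolase of peroxisomes, one of 2.54. Hadha, of the mitochondrial trifunctional protein, was near equal at 49.5 and 47.0 FPKM in the heavy and light fraction. Glycolysis and gluconeogenesis gave 10 of 25 higher in the heavy and 0 higher in the light fraction, with a median of 0.95, where Pc, the pyruvate carboxylase, had a log2 ratio of 2.06 and Pck1, which controls gluconeogenesis, one of 0.58.

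Lipid synthesis was nearer to the middle. Of 24 mRNAs of fatty acid and triglyceride synthesis, 6 were higher in the heavy and 1 in the light fraction, with a median of 0.56. The shares of all loci were 23.0% and 23.9%, so the heavy share of this list was near that of all loci. Fasn, the fatty acid synthase, was at 49.2, 10.9 and 18.9 FPKM in the heavy fraction, the light fraction and total RNA, a log2 ratio of 2.17 on 320 and 76 fragments. Scd1, the desaturase that makes oleate, was at 372, 439 and 424 FPKM, a ratio of 0.848 (0.784 to 0.916). Cholesterol synthesis gave 8 of 26 higher in the heavy and 4 in the light fraction, against the same 23.0% and 23.9%. There the later enzymes Nsdhl and Cyp51 had log2 ratios of -0.92 and -1.43.

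Detoxifying enzymes leaned to the heavy fraction. Of 34 cytochrome P450s, 13 were higher in the heavy and 2 in the light fraction, with a median of 0.52, and of 27 conjugating enzymes of phase II, 16 and 1, with a median of 1.10. Cyp4a2, a fatty acid hydroxylase, was at 5186, 1177 and 1072 FPKM in the heavy fraction, the light fraction and total RNA. Cyp27a1, a hydroxylase of bile acid synthesis, had a log2 ratio of 2.51 and Cyp2e1, which oxidises ethanol, one of -0.16. These families have close paralogs, so the counting can split or share their reads. Mgst1, a microsomal glutathione transferase, was near equal at 1387 and 1362 FPKM in the heavy and light fraction, and Gstm1, a cytosolic one, had a log2 ratio of 1.37.

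Protein quality control and protein synthesis enzymes formed another heavy group. Of 39 proteasome subunits, 16 were higher in the heavy and 1 in the light fraction, with a median of 0.63. Psma5, of the catalytic core, was at 262, 57.0 and 71.4 FPKM in the heavy fraction, the light fraction and total RNA, a ratio of 4.59 (3.18 to 6.80), and Psmb3, also of the core, had one of 6.11 (3.57 to 11.1). Their transcripts are short, with implied lengths of 1009 and 824 bases. The aminoacyl-tRNA synthetases, which charge tRNAs, gave 13 of 36 higher in the heavy and 1 in the light fraction, with a median of 0.78, and Gars, for glycine, had a log2 ratio of 2.23. Cytosolic and related chaperones gave 10 of 17 and 1, with a median of 1.12. Hspa9, the mitochondrial Hsp70, was at 179, 30.6 and 73.1 FPKM, a log2 ratio of 2.55, whereas Bag1, a cochaperone of Hsp70, was at 14.9, 65.9 and 32.4 FPKM, a log2 ratio of -2.14.

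Of 42 mRNAs of the endoplasmic reticulum's folding and translocation machinery, 8 were higher in the heavy and 5 in the light fraction. Both shares were below the 23.0% and 23.9% of all loci, and the median was 0.10. Counting intervals lay above 1 for 9 and below 1 for 10 of 34, against 15.9% and 13.5% of all loci that allowed one. Hspa5, the Hsp70 of the endoplasmic reticulum, was at 493, 116 and 284 FPKM in the heavy fraction, the light fraction and total RNA. Its log2 ratio was 2.09, and that of P4hb, a disulfide isomerase, was 1.68. Calr, a chaperone of glycoproteins, was at 384, 537 and 561 FPKM, a log2 ratio of -0.48. A pair of small subunits lay far to the light side, with log2 ratios of -2.31 for Sec11c of the signal peptidase and -3.37 for Srp9 of the signal recognition particle, the latter on 2 and 23 fragments.

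**Figure D3:**
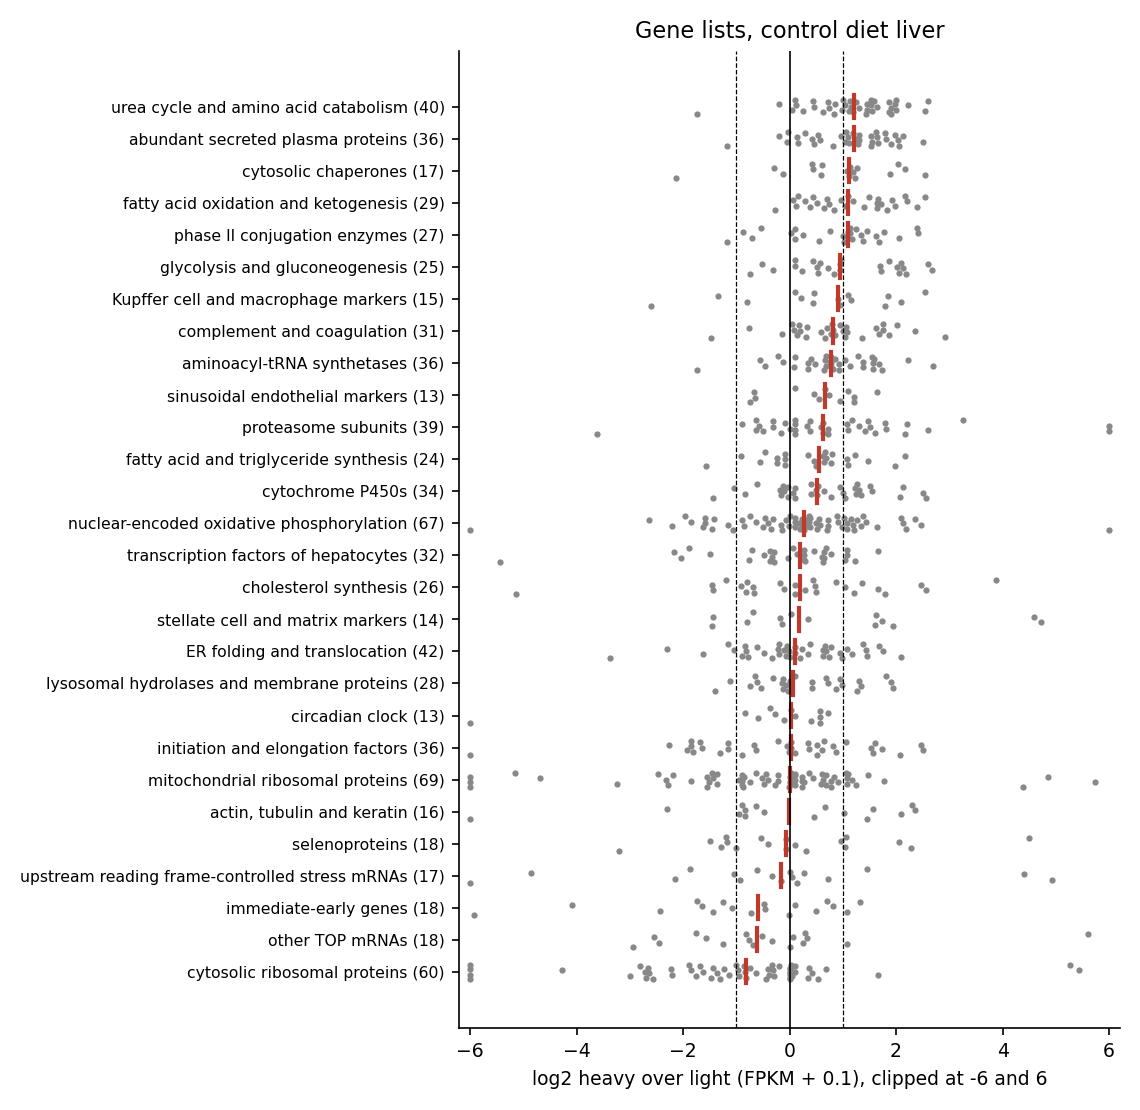
Log2 ratio of heavy over light in control diet liver for the members of 28 gene lists, with 1 grey point per member and a red bar at each list's median. The black line is the median of all loci compared and the dashed lines mark a 2-fold difference. Values beyond 6 in either direction, of which there were 14, are drawn at the edge. Plasma proteins, amino acid breakdown, chaperones and fatty acid oxidation have the highest medians and cytosolic ribosomal proteins the lowest of the lists with over 20 members.

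Oxidative phosphorylation mRNAs of the nucleus gave 17 of 67 higher in the heavy and 12 higher in the light fraction, with a median of 0.27, against a background of 23.0% and 23.9%. Within the list, Uqcrc2, a core subunit of complex III, was at 177, 38.6 and 48.5 FPKM in the heavy fraction, the light fraction and total RNA, a log2 ratio of 2.19. Ndufs1, a large subunit of complex I, had a log2 ratio of 2.47. Atp5e, the smallest subunit of the ATP synthase, was at 1059, 3179 and 905 FPKM, a log2 ratio of -1.59 with an implied transcript of 375 bases. Cox7c, another short mRNA, was at 927 and 723 FPKM in the heavy and light fraction, a ratio of 1.28 (1.03 to 1.60). Mitochondrial ribosomal proteins gave 11 of 69 and 18, with a median of 0.00, against -0.83 for the cytosolic ribosomal proteins. Their counting intervals did lean to the light side, above 1 for 3 and below 1 for 13 of 59. Of all loci that allowed one, 15.9% lay above and 13.5% below 1.

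Transcripts of the mitochondrial genome are translated by the ribosomes inside mitochondria and were low in the heavy fraction. The deposited table merges most of them into 1 locus (chromosome MT, 5323 to 14061, with Mt-co1, Mt-co2, Mt-cox3, Mt-atp6, Mt-nd4 and others), which was at 4883 FPKM in the heavy fraction, 64680 FPKM in the light fraction and 40774 FPKM in total RNA, a log2 ratio of -3.73. The locus of Mt-nd1 and Mt-nd2 was at 1935, 9379 and 7194 FPKM, and that of Mt-cytb at 95.4, 1872 and 1313 FPKM. Non-coding RNAs outside ribosomes gave a similar picture. RNase_MRP, an RNA of ribosomal RNA processing, was at 14906, 95172 and 16427 FPKM, a log2 ratio of -2.67. Among the loci of 7SK, an RNA that holds back transcription elongation, the one with the highest mean of both CD fractions (chromosome X) was listed at 0 in the heavy fraction and at 12519 FPKM in the light fraction, from 26 fragments. Of 74 loci of such small non-coding RNAs, 31 were higher in the light and 4 in the heavy fraction, against 23.9% and 23.0% of all loci. Of 66 RNAs of nucleoli and Cajal bodies, 17 were higher in the heavy fraction, a share near the 23.0% of all loci, and 5 in the light fraction, and 45 and 51 of them were listed at 0 in the heavy and in the light fraction. Such RNAs often lie in introns of coding genes, as SNORA48 does here at the locus of Eif4a1, and FPKM of features this short rest on few fragments.

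Selenoprotein mRNAs recode a stop codon as selenocysteine, and the 18 compared were split, 5 past 2-fold on each side and a median of -0.07. Of all loci, 23.0% were past 2-fold on the heavy and 23.9% on the light side. The light members were the abundant ones, so that the list made up 0.388% of the heavy and 1.75% of the light sum. Sepp1 (selenoprotein P, which carries selenium from the liver, chromosome 2, 53109684 to 53115877) was at 886 FPKM in the heavy fraction, 8116 FPKM in the light fraction and 3674 FPKM in total RNA. Its 920 and 9054 fragments gave a ratio of 0.109 (0.102 to 0.117). Gpx1, a cytosolic glutathione peroxidase, was at 755, 2139 and 1093 FPKM, a log2 ratio of -1.50, and Gpx4, which reduces lipid peroxides, had -1.29. Sephs2, an enzyme that makes the selenium donor, was on the heavy side with 50.0 and 10.3 FPKM in the heavy and light fraction.

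Some mRNAs are known for control at the start of translation. Of 6 mRNAs with an iron-responsive element, 1 was at least 2-fold higher in the heavy and 1 in the light fraction, and the median was -0.40. That median changed sign to 0.47 for heavy over total RNA, and it was 0.60 in the WD pair. Fth1, the ferritin heavy chain, carries an iron-responsive element before its reading frame, and it was at 105, 997 and 502 FPKM in the heavy fraction, the light fraction and total RNA, a ratio of 0.105 (0.0765 to 0.142). Stress mRNAs with upstream reading frames gave 3 of 17 higher in the heavy and 5 higher in the light fraction, against 23.0% and 23.9% of all loci. Atf5, a transcription factor of the integrated stress response, was at 134, 491 and 429 FPKM, a log2 ratio of -1.87, and Atf4, the central factor of that response, at 56.8, 117 and 31.1 FPKM, a log2 ratio of -1.05. Trib3, a pseudokinase target of Atf4, had a log2 ratio of 1.45.

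Immediate-early mRNAs, which are made and lost quickly, gave 8 of 18 higher in the light and 2 in the heavy fraction. The shares of all loci were 23.9% and 23.0%. The median of the immediate-early list was -0.60. Counting intervals were nearly balanced, lying above 1 for 3 and below 1 for 4 of 16. The median was -0.02 with a filter at 10 FPKM, and against total RNA it was 0.01 in the heavy and 0.25 in the light fraction. Jund, a subunit of AP-1, had a log2 ratio of -1.65 and Gadd45g, a growth arrest protein, one of 1.32. Transcription factors of hepatocytes had a median of 0.20, with 5 of 32 past 2-fold on each side, a share below that of all loci. Among them Onecut1 was at 19.9, 82.6 and 83.1 FPKM in the heavy fraction, the light fraction and total RNA, a log2 ratio of -2.05, and the nuclear receptor Hnf4a was at 291, 375 and 366 FPKM. Clock mRNAs lay near the middle, with 0 of 13 higher in the heavy and 1 in the light fraction. Lysosomal proteins gave 6 of 28 and 2, against 23.0% and 23.9% of all loci, with a median of 0.07. Histones that lack a poly(A) tail gave 5 of 11 and 0, with 3 and 7 listed at 0 in the heavy and light fraction. In the cytoskeleton list, Actb (beta-actin) was at 1432, 522 and 698 FPKM, a log2 ratio of 1.45, and Tmsb4x, a short mRNA of an actin-binding peptide, at 206, 1013 and 481 FPKM, a log2 ratio of -2.29.

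Across all loci with enough fragments, the mRNAs with the highest and lowest ratios were of mixed function. Lbh, a transcriptional cofactor, was at 23.7 FPKM from 100 fragments in the heavy fraction and at 0 in the light fraction, so that it was at least 35.8-fold higher in the heavy fraction when 3 fragments are allowed for the 0, and the WD fractions had 46.2 and 55.8 FPKM. Baat, the enzyme that joins bile acids to glycine or taurine (chromosome 5, 64768401 to 64777368), rested on more fragments than the other mRNAs at that end. It was at 868 FPKM in the heavy fraction, 80.9 FPKM in the light fraction and 194 FPKM in total RNA, a ratio of 10.7 (8.68 to 13.4). Igj, the joining chain of antibodies, was at 202 and 18.4 FPKM in the heavy and light fraction, and Maob, a monoamine oxidase, at 50.7 and 5.00 FPKM. The rest of the 10 highest were AABR07070032.1, Insc, Bcap31, F8a1, Aspg and Ctnnbl1, with log2 ratios between 3.22 and 4.92 and 1 to 5 fragments each in the light fraction.

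At the other end, AABR07054000.1 was at 0 in the heavy fraction and at 54.6 FPKM from 144 fragments in the light fraction, at least 44.7-fold higher there. Eif4ebp2 was next, and Mbd2, a protein that binds methylated DNA, was at 0.961 and 41.1 FPKM in the heavy and light fraction on 1 and 46 fragments. Aes, a corepressor of the Groucho family, had the highest level of the 10, at 28.9 FPKM in the heavy fraction, 407 FPKM in the light fraction and 175 FPKM in total RNA, a ratio of 0.0710 (0.0300 to 0.144). The remaining ones, MGC108823, Fdx1l, Tmem38b, Nab1, Ccny and Cnbd2, had log2 ratios between -3.96 and -3.32.

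Transcript length was set beside the ratio because a short reading frame has room for few ribosomes. Over 3423 protein-coding loci with an implied transcript length and at least 20 fragments, Spearman's rho across genes between the ratio and length was 0.019, which describes these libraries only, since genes are not replicates. The shortest mRNAs still stood out at 2-fold. Of 70 loci with transcripts of 200 to under 600 bases, 32.9% were higher in the light and 10.0% in the heavy fraction, against 15.3% and 25.7% of the 1031 loci of 1500 to under 2500 bases. Ribosomal proteins make up part of the shortest group, and without them 23.1% of the remaining 52 loci were higher in the light and 13.5% in the heavy fraction, and their median was 0.28. Against total RNA, the same 70 loci had a median of 0.44 in the heavy fraction. The 288 loci of at least 6000 bases had a median of 0.37, and one of 0.03 for heavy over total RNA. With total RNA as the denominator, 5.56% of these 288 and 28.6% of the 70 shortest were at least 2-fold higher in the heavy fraction. The order of the shortest and longest groups thus changed with the denominator. Some of the longest implied lengths may be too long.

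**Figure D4:**
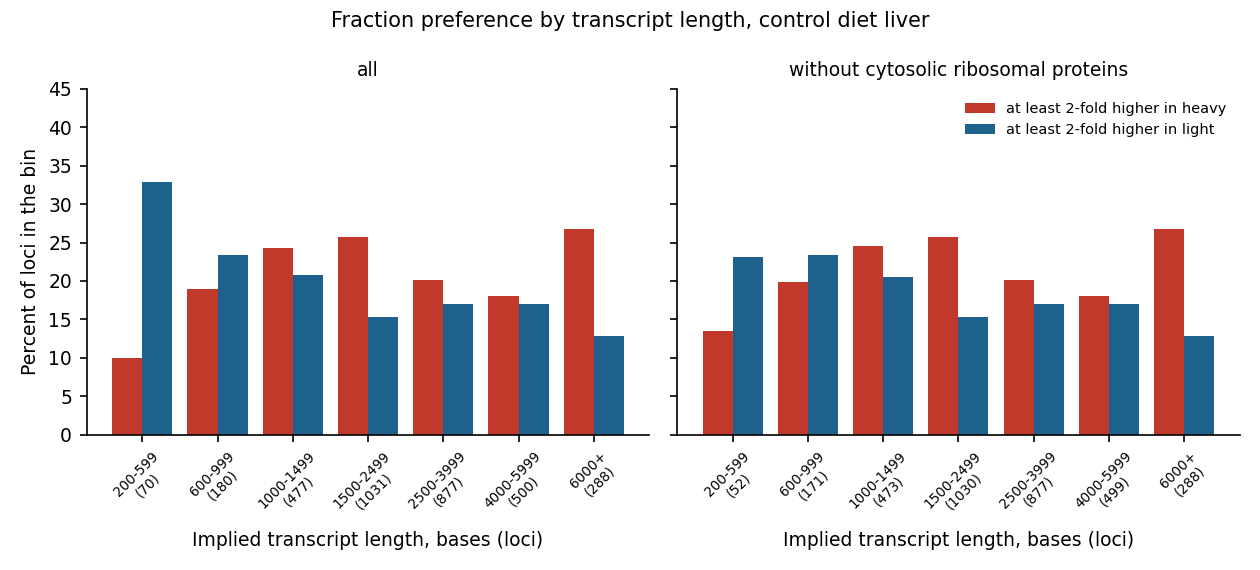
Percent of protein-coding loci at least 2-fold higher in the heavy and at least 2-fold higher in the light fraction of control diet liver, by implied transcript length in bases, for all loci and without cytosolic ribosomal proteins. The bars of the light fraction are tallest for transcripts of 200 to under 600 bases, at 32.9%, and fall to 23.1% there without the ribosomal proteins.

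Markers of other liver cells were low beside those of hepatocytes in both fractions. All 12 hepatocyte markers were compared, and they summed to 125411 FPKM in the heavy and 50452 FPKM in the light fraction. Kupffer cell markers (15 of 16 compared) summed to 285 and 163 FPKM, endothelial markers (13 of 14) to 176 and 181 FPKM, and stellate cell and matrix markers (14 of 17) to 197 and 194 FPKM. Blood cell markers (9 of 21) summed to 72.5 and 125 FPKM, and of these Hba1, an alpha-globin, was at 0 in the heavy and at 18.0 FPKM (5 fragments) in the light fraction. Markers not compared averaged under 1 FPKM or had no locus of that name. The part of these cells in the ratios was not tested. Of the 15 Kupffer cell markers, 6 were at least 2-fold higher in the heavy and 2 in the light fraction, against 23.0% and 23.9% of all loci. Their median log2 ratio was 0.90. The values ran from -2.60 to 2.55, the highest being that of Clec4f, a lectin of these cells.

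The WD fractions are the other pair of libraries in the series and share no library with the CD pair. Across all 10201 loci, Spearman's rho between the log2 ratios of both diets was 0.536, and it was 0.730 over the 4069 loci that averaged at least 10 FPKM and 0.792 over the 647 that averaged at least 100 FPKM. This describes loci, which share the gradients' cuts and the library preparation. Of the 1185 loci whose CD interval lay above 1, 1101 (92.9%) also had a WD ratio above 1, against 48.5% of all loci, and 665 (56.1%) were past 2-fold. Of the 1010 whose interval lay below 1, 912 (90.3%) had a WD ratio below 1, against 50.0%, and 613 (60.7%) were past 2-fold. The list medians in the CD and WD pair were 1.22 and 1.10 for plasma proteins, 1.22 and 1.12 for amino acid breakdown, 1.10 and 1.36 for fatty acid oxidation, 0.63 and 0.58 for the proteasome and -0.83 and -2.04 for cytosolic ribosomal proteins. Several mRNAs described above had close values in both pairs, with CD and WD log2 ratios of 2.59 and 2.63 for Otc, 2.91 and 3.52 for C6, -1.47 and -2.02 for F9, -3.20 and -3.03 for Sepp1, -3.25 and -3.54 for Fth1 and -6.31 and -6.61 for Eif4ebp2. Others were not, among them Uqcrb, a small subunit of complex III, with -2.63 on 7 and 47 fragments in the CD and 0.29 in the WD pair. The diets differ between these pairs, so they are not replicates.

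**Figure D5:**
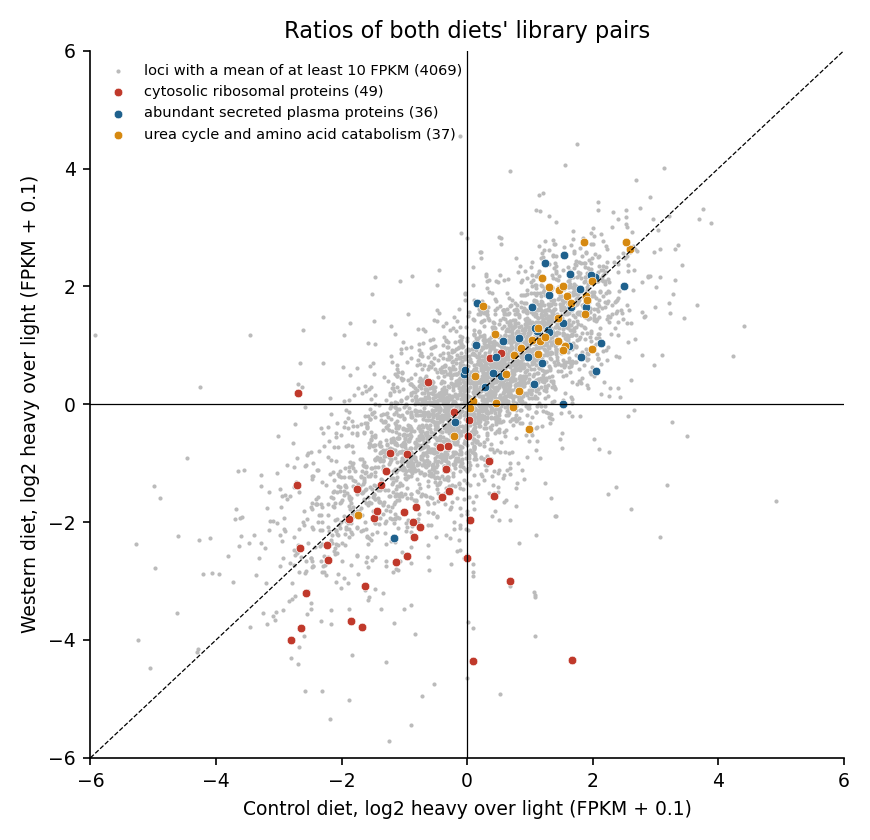
Log2 ratio of heavy over light in Western diet liver against that in control diet liver for loci that averaged at least 10 FPKM in the 6 libraries, 1 point per locus. Cytosolic ribosomal proteins, plasma proteins and the enzymes of the urea cycle and amino acid breakdown are in colour. The plot holds 4069 loci, of which 195 lie outside its axes, and most points far from 0 in the control diet lie on the same side in the Western diet.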

How the data were processed

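RNA from total liver lysate and from light and heavy gradient fractions was sequenced after the authors removed ribosomal RNA, with 1 library of 3 pooled rats per fraction and diet. Per the methods and the submitters' notes, reads were demultiplexed with bcl2fastq, aligned to Rnor_6.0 with TopHat and quantified with Cufflinks and Cuffnorm, and the deposited values are the authors' FPKM per locus, normalized between libraries. The annotation is not given in the sources used here, and the methods also describe a route for ribosome footprints, so the exact route of the fraction reads is not certain.

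The 2 CD fractions were compared over loci with a symbol, status OK and 1 FPKM or more on average in the 6 libraries (10201 loci). A ratio or fold is heavy over light of FPKM + 0.1, on the log2 scale unless stated, and adding 0.1 understates changes of low loci. Percents are of the loci compared unless another base is named. A called locus has a ratio of at least 2 or at most 0.5. Of the loci, 277 carry a symbol found on several loci and 173 merge several symbols. Apob had a failed estimate and was left out.

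Fragment numbers were inferred as the whole numbers that explain a gene's FPKM in the 6 libraries with 1 factor per library, within 0.01 of a whole number. They were found for 74.4% of 13083 genes and for 2.12% after values were jittered by 1%, so chance fits are few. The true numbers may be multiples of those found. Numbers can also be too large, since the fit assumes 1 transcript length per locus. Mrps27 had an implied length of 18819 bases, against a median of 1004 for mitochondrial ribosomal proteins. A number that is too large makes its counting interval too narrow. The inferred numbers came to 294252 fragments in the heavy and 254095 in the light fraction, with medians of 8 and 10 per locus. Counting intervals are exact binomial (Clopper-Pearson) 95% intervals. A 0 was replaced by 3 fragments for a bound. Transcript lengths follow from a locus' fragment number and FPKM, on a scale set with 8 genes without introns. The lengths of these 8 genes differed from their locus by 0.0 bases at most, which is a fit to the genes used and not a separate check. The inference was tested on simulated data. These were built from whole numbers with the same library factors, so they cannot check that assumption.

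Named are the 10 highest and 10 lowest ratios among loci averaging at least 10 FPKM, with a symbol on 1 locus and at least 30 fragments, the 20 most abundant loci, per list the 4 most abundant members and the 2 highest and 2 lowest with at least 20 fragments, and the mRNAs assayed by qRT-PCR. Gene lists came from general knowledge, and the comparison, its members and the lists were chosen with earlier results of these data known. A planned comparison with protein length was not run, since no protein table was given, and transcript length took its place. Of the loci, 8670 (85.0%) matched a RefSeq GRCr8 symbol. Alternatives were other pseudocounts, filters, folds, scalings and denominators. Values were computed in Python 3.11.15 with numpy 2.4.6, scipy 1.17.1 and pandas 2.3.3, and drawn with matplotlib 3.10.9. Some results are not reported here.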

Additional observations from a re-analysis of the deposited data

Results flagged for a closer look

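Of the 10201 loci compared, 382 lay past 2-fold on opposite sides in the 2 diets, and 3 of these are among the loci chosen for naming. The differences were not tested. AABR07070032.1 had log2 ratios of heavy over light of 4.92 in the CD and -1.64 in the WD pair. Foxa2, a transcription factor of hepatocytes, had 1.09 and -1.21, with 16 and 8 fragments in the CD fractions. Terc, the telomerase RNA, had 6.00 and -6.35, where the CD values rest on 1 fragment in the heavy and 0 in the light fraction. Outside the comparison, 864 loci without a symbol, with a median length of 123.5 bases, summed to 24300000 FPKM in the CD heavy and 44600000 FPKM in the CD light fraction, or 97.2% and 98.5% of all FPKM. The cause of these values was not tested.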

How the results depend on the processing

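The counts of 2342 loci higher in the heavy and 2437 higher in the light fraction moved by over 1.5 times with a filter at 10 FPKM on average (947 and 799 of 4069 loci) and with a 4-fold threshold (776 and 1175). They also did with at least 20 fragments over both fractions (836 and 690), chosen after seeing the data. Both filters keep fewer loci, so their counts fall with the number compared, and the 4-fold threshold is a stricter cut over the same loci. Other pseudocounts, a lower or no filter, centring, rescaling, 1 locus per symbol, a 1.5-fold threshold and total RNA as the denominator (1705 and 2143) kept the counts within 1.5 times. With total RNA as the denominator the median of plasma proteins went from 1.22 to 0.29, that of complement and coagulation from 0.82 to 0.14, that of chaperones from 1.12 to 0.40, that of hepatocyte markers from 0.70 to 0.02, that of iron-responsive element mRNAs from -0.40 to 0.47 and that of immediate-early mRNAs from -0.60 to 0.01. No paired analysis was possible because each group is 1 pooled library. For the same reason no replicate could be left out. Depth limits the ratios, since 33.3% of loci with fragment numbers had 10 or fewer in both fractions together.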
